A study of Mus musculus with 30 samples.

Results

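Messenger RNA of the circadian clock genes was examined in myotubes of C2C12, a mouse myoblast line that fuses into multinucleated muscle cells when it is differentiated. The genes were taken by symbol: Clock and Arntl, which encode the activators of the clock, Per1, Per2, Per3, Cry1 and Cry2, which encode its repressors, Nr1d1 and Nr1d2, which encode the REV-ERB nuclear receptors, and Dbp, an output gene. Of these 10 genes, 9 were among the 16025 genes of the count table, and all 9 passed the filter on low counts, which left 12184 genes for the tests. Arntl was not analysed here.

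The 30 cultures made up 10 groups of 3 libraries, all wild type and all of the same line. Of these, 5 groups received D-galactose at 20 mg/mL for 24 h, a sugar used in culture to bring on ageing-like changes. These groups were Dgal, RGW_Dgal, SFr_Dgal, NSFr_Dgal and Rb2_Dgal, of which the last 4 had first been pretreated for 12 h with a preparation of Korean Red Ginseng. RGW is the water extract, SFr its saponin fraction and NSFr its non-saponin fraction, each at 100 µg/mL, and Rb2 is a purified ginsenoside, used at 20 µM. The preparations alone, RGW, SFr, NSFr and Rb2, were labelled as 12 h treatments, and the remaining group was the vehicle control. The labels name neither a clock time of harvest nor the duration of the vehicle treatment, so that time in culture and the effect of D-galactose cannot be told apart. Nor can time in culture be told apart from the effect of a preparation against control, or of a pretreatment against Dgal. The design text calls the libraries biological replicates without saying how the cultures were separated, so p-values measure the spread between these libraries.

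The mammalian clock is a feedback loop of transcription that runs in nearly every cell. CLOCK pairs with BMAL1, the product of Arntl, and the pair binds E-box sequences to activate the Per and Cry genes, whose proteins accumulate and repress that pair. In a second loop the REV-ERB proteins, themselves activated through E-boxes, repress Arntl, Clock and other genes through elements that the activating ROR receptors also bind. DBP, a transcription factor that binds D-box sequences, carries the rhythm to output genes, and in skeletal muscle the clock is known to time genes of fuel use and of muscle differentiation. In cultured lines such as C2C12, cells lose phase with one another unless a serum change, a glucocorticoid or another signal sets them together.

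All libraries held between 22209306 and 30218420 counts, and mitochondrially encoded genes took 0.727% to 1.69% of them. The SFr groups differed most from their baselines over all genes, with 43.1% of genes called in SFr against control and 41.3% in SFr_Dgal against Dgal. As a check of the myotube label, 9 myotube markers summed to between 19895 and 25186 CPM (counts scaled to each library's TMM-normalised size), among them Myog and the embryonic myosin gene Myh3. Adipoq, Fabp4 and Plin1, which define fat cells, did not pass the filter on low counts. Cebpa and Pparg, also listed as fat cell markers, did pass, and averaged 14.6 and 5.39 CPM in control. Of the bone, cartilage and tendon markers, Sox9, Runx2, Scx and Sp7 passed, and Bglap, Ibsp, Acan and Tnmd did not. The myoblast markers Cdh15, Pax7 and Myf5 passed as well. The check therefore does not show that the cultures held myotubes alone.

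The clock genes differed little between groups. The ratio of the highest to the lowest group mean was 1.42 for Dbp, 1.41 for Per1, 1.31 for Per2, 1.24 for Clock, 1.22 for Cry1, 1.21 for Nr1d2, 1.20 for Cry2, 1.17 for Per3 and 1.12 for Nr1d1. The median span of the 9 genes was 0.28 on the log2 scale, against 0.33 over all tested genes. In the test for any difference among the 10 groups (edgeR quasi-likelihood F-test, with calls at 0.05 after Benjamini-Hochberg adjustment over all tested genes), 8 of the 9 genes were called, all but Nr1d1, where 72.9% of all tested genes were called. The count was 5 of 9 without the 6 SFr libraries, an alternative chosen after seeing the data: Clock, Per3 and Cry1 then had adjusted p of 0.135, 0.601 and 0.798. Leaving out single libraries, named here by group and replicate number, gave 6 to 9 calls, with 6 without SFr 2 and 9 without Dgal 1 or NSFr 1.

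Over 15 pairwise comparisons the 9 genes gave 135 tests, of which 33 were called and 0 reached a 2-fold change. Of all tested genes, from 1.53% (Rb2 against control) to 43.1% (SFr against control) were called in a comparison. The counts of calls therefore say little by themselves about the clock genes. Several of these comparisons share their control libraries and are not independent of each other. Dbp was called in 6 comparisons, Nr1d2 also in 6, Per1 in 5, Clock and Per2 in 4 each, Cry1 and Cry2 in 3 each, Per3 in 2 and Nr1d1 in 0.

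Within a library, levels can be compared between genes only per length. Divided by the exonic length in the GENCODE annotation, the mean over groups was 25.2 CPM per kb for Nr1d1, 15.975 for Nr1d2, 10.2 for Dbp, 8.67 for Clock, 6.21 for Cry1, 5.01 for Per1, 4.13 for Cry2, 3.64 for Per3 and 3.55 for Per2. The REV-ERB genes were thus the highest of the 9 on this scale and Per2 the lowest. The length used merges the exons of all annotated transcripts of a gene. It may differ from the length of the transcripts expressed here, which was not measured. Groups in the order of their means mostly overlapped with their neighbours: libraries of adjacent groups overlapped in all 9 steps for Clock, Per2, Per3, Cry2, Nr1d1 and Dbp. Such an order puts groups of near means side by side, which favours overlap. The steps were not counted over all tested genes, so this overlap is not shown to be particular to the clock genes. The steps without overlap were from SFr_Dgal down to NSFr and from control down to Rb2 for Per1, from SFr_Dgal down to Rb2 for Nr1d2 and from NSFr_Dgal down to SFr for Cry1.

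**Figure D1:**
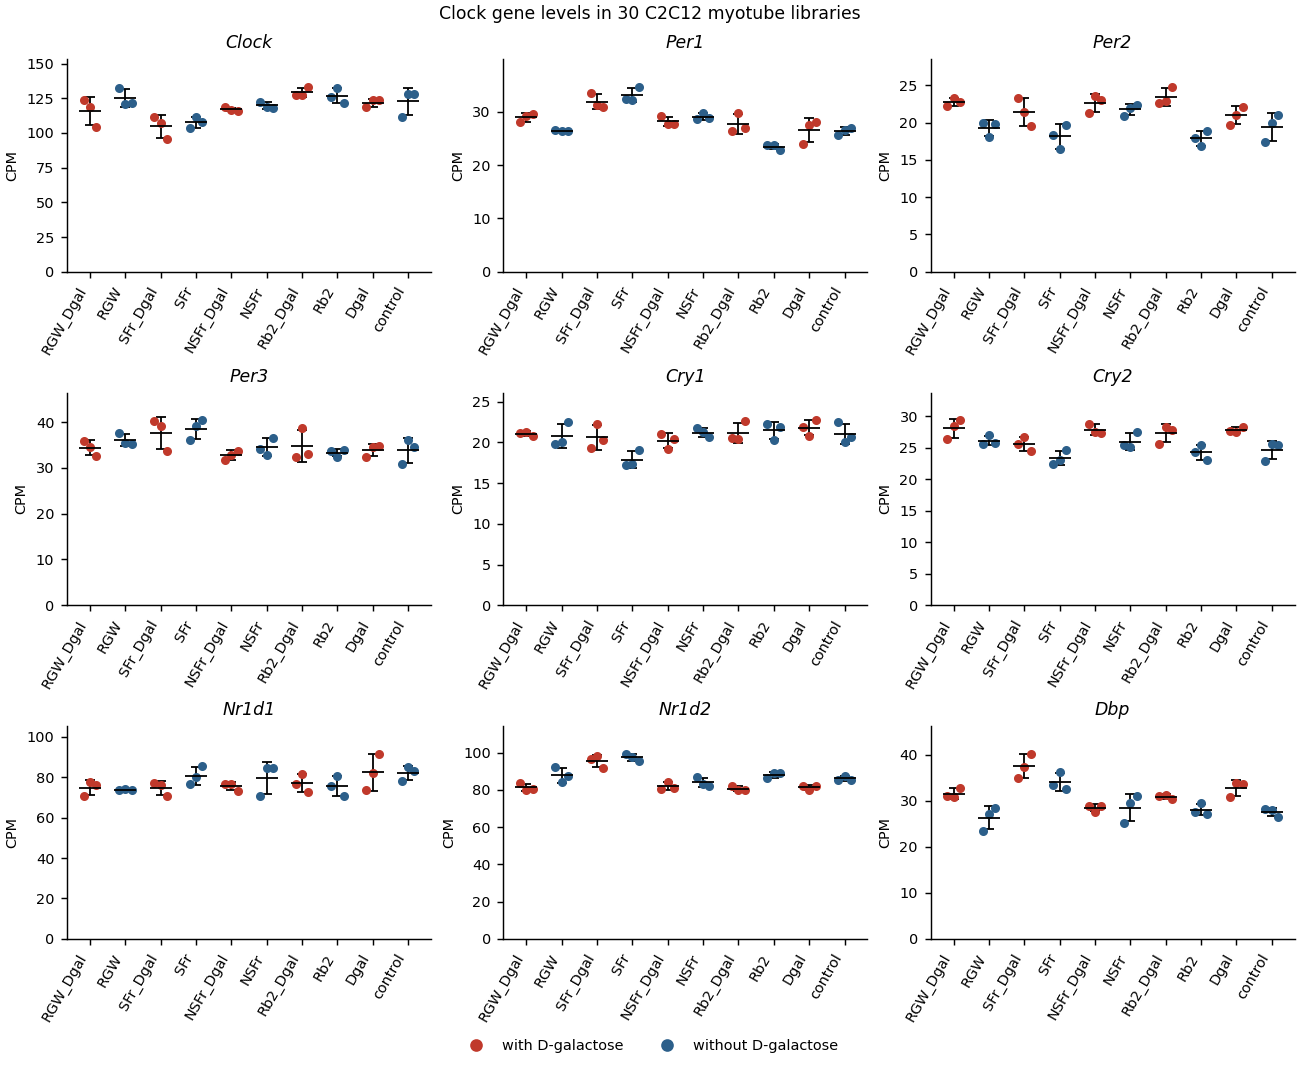
Level of each clock gene in CPM (vertical axis) in the 10 groups (horizontal axis); points are libraries and bars the group mean with its SD (n = 3). Each panel has its own axis from 0. Per1, Nr1d2 and Dbp sit highest in the groups with SFr, while Clock sits lowest there.

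For orientation, stretches of 4 promoters are shown from RefSeq windows on GRCm38.p6, chosen among those with a match to a motif described below. Windows of 300 bases, 250 before and 50 after a start, were found for 9 of the 10 genes, 13 windows in all, since Clock had 3 and Per1 and Arntl 2 each. Printed are the bases before the start that lie outside annotated exons, 5′ to 3′ on the gene's strand, with motif matches in capitals. Per1 lies on the plus strand at chr11:69098699-69098947, Per3 on the minus strand at chr4:151044666-151044915, Nr1d2 on the minus strand at chr14:18239128-18239356 and Cry1 on the minus strand at chr10:85185065-85185304.
Per1: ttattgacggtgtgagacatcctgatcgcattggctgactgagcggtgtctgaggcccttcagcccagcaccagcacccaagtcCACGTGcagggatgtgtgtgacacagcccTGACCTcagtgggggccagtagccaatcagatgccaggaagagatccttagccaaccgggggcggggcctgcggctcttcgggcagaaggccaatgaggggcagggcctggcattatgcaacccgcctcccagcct
Per3: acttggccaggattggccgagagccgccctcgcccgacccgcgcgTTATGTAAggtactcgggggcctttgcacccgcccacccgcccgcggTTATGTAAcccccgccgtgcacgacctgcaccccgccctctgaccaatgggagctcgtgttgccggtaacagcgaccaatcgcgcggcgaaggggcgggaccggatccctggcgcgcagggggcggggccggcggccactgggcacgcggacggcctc
Nr1d2: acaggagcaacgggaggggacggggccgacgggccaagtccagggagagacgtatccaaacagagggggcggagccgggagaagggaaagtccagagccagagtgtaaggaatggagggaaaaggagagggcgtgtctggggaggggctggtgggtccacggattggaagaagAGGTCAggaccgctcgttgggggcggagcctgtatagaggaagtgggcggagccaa
Cry1: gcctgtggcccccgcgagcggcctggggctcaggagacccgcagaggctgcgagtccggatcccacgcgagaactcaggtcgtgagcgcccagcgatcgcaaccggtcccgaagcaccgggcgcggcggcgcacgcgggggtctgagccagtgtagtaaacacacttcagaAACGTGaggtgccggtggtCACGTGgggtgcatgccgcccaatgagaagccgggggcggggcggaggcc

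The motifs searched, on both strands, were the E-box CACGTG, the E-prime box CACGTT, the D-box as TTATGTAA or TTACGTAA, the ROR element half-site AGGTCA and the cAMP response element TGACGTCA. None of these motifs contains another. Genes are named here where any of their windows held a match, whereas the shares are per window, so a gene with several windows had more chances. The window shown for Per1 and that of Cry1 held an E-box, which 7.15% of 32851 RefSeq windows of that length held. The other Per1 window, with its start at chr11:69100152, held none of the motifs. Cry1 also held an E-prime box (AACGTG as printed), as did Cry2 and Nr1d1, against 4.69% of windows. Per3 held both of its D-boxes in the T form, a form found in 0.938% of windows, whereas the C form was found in 0.119% and in no window of a clock gene. The half-site, in 16.3% of windows, stood in those of Arntl, Clock, Nr1d2 and Per1 (TGACCT as printed), and the cAMP response element, in 1.79%, in none. A match is a description of these letters only.

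With the saponin fraction alone, clock genes differed from control in both directions. Against control, 6 of 9 genes were called, where 43.1% of all tested genes were called. Per1, Per3, Nr1d2 and Dbp were higher (21.3% of genes were higher) and Clock and Cry1 were lower (21.8% were lower). The largest change was that of Per1, by 25.7%. The median log2 fold change of the 9 genes was -0.024, against 0.00050 over all tested genes.

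Clock, the activator, measured 103, 112 and 108 CPM in SFr and 112, 128 and 128 CPM in control. All 3 SFr libraries were lower, the nearest pair being almost level. The log2 fold change was -0.19 ± 0.057 (SE, n = 3 per group; adjusted p = 0.00753).

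Among the repressors, Per1, a period gene that external signals induce early, measured 32.5, 32.2 and 34.7 CPM in SFr, against 25.7, 26.5 and 27.0 CPM in control, with no overlap (0.33 ± 0.053, adjusted p = 4.08e-06). Per3, a period gene that is not needed for rhythm in mice, measured 36.1, 39.1 and 40.4 CPM in SFr and 30.8, 36.1 and 34.6 CPM in control. Its groups overlapped slightly, as the lowest SFr library (36.08 CPM) lay just under the highest control library (36.09 CPM). The log2 fold change of 0.19 ± 0.067 (adjusted p = 0.0213) was not called without control 1 (adjusted p = 0.148), SFr 2 (0.0541) or SFr 3 (0.0932). Cry1, which encodes the stronger cryptochrome repressor, went the other way, with 17.2, 17.4 and 19.1 CPM in SFr and 22.5, 20.0 and 20.7 CPM in control. Every SFr library was below every control library (-0.24 ± 0.064, adjusted p = 0.00265). Per2, a period gene needed for stable rhythm in mice, had a log2 fold change of -0.090 (95% interval -0.24 to 0.060, adjusted p = 0.342) and Cry2, the other cryptochrome gene, one of -0.074 (-0.19 to 0.042, adjusted p = 0.311). In both the libraries of the groups overlapped.

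In the second loop, Nr1d2, the REV-ERBβ gene, measured 99.2, 97.4 and 95.7 CPM in SFr and 85.4, 87.4 and 85.5 CPM in control. The groups did not overlap and the spread within them was small (0.18 ± 0.036, adjusted p = 0.000116). Nr1d1, the REV-ERBα gene, changed by -0.024 on the log2 scale (95% interval -0.17 to 0.12, adjusted p = 0.809). Dbp, the output gene, measured 33.4, 36.2 and 32.5 CPM in SFr, against 28.2, 28.0 and 26.5 CPM in control, again without overlap (0.30 ± 0.066, adjusted p = 0.000318). Exons of Dbp (chr7:45705088-45710203, plus strand, GRCm38) overlap those of Sphk2, a sphingosine kinase gene on the opposite strand, over 539 bases, 18.01% of the exonic length of Dbp. The strand setting of the counting is not given in the sources used here, so reads from the overlap may be uncertain. Sphk2 itself was higher in SFr than in control by 0.14 ± 0.046 (adjusted p = 0.0131).

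After pretreatment and D-galactose, SFr_Dgal was compared with Dgal, and 4 of 9 clock genes were called (41.3% of all genes). Per1, Nr1d2 and Dbp were higher, where 20.3% of genes were, and Clock was lower, where 21% were. Per1 measured 33.5, 31.3 and 30.8 CPM in SFr_Dgal and 23.9, 27.5 and 28.1 CPM in Dgal (0.26 ± 0.054, adjusted p = 0.000147). Nr1d2 measured 96.7, 98.1 and 91.7 CPM in SFr_Dgal and 82.2, 79.7 and 82.0 CPM in Dgal (0.23 ± 0.036, adjusted p = 3.09e-06). In both genes every SFr_Dgal library was above every Dgal library. Dbp measured 35.1, 37.3 and 40.2 CPM in SFr_Dgal and 30.7, 33.8 and 33.7 CPM in Dgal. Its groups did not overlap, but the change of 0.20 ± 0.064 (adjusted p = 0.014) was not called without Dgal 1 (0.0909) or SFr_Dgal 3 (0.103). Clock measured 111, 107 and 95.5 CPM in SFr_Dgal and 118, 123 and 123 CPM in Dgal (-0.22 ± 0.057, adjusted p = 0.0026), all lower. Cry1, which was lower after SFr alone, was at -0.085 here (95% interval -0.21 to 0.043, adjusted p = 0.292). Per3 was at 0.15 (0.014 to 0.29, adjusted p = 0.0718), and called without SFr_Dgal 3 (0.00669). Nr1d1 was at -0.14 (-0.29 to -0.0020, adjusted p = 0.0981), and called without Dgal 1 (0.0109).

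SFr and NSFr are fractions of the same extract used at the same dose, which makes the comparison between them one of matched treatments. In SFr against NSFr, 7 of 9 clock genes were called, 3 higher and 4 lower, where 40.4% of all genes were called, 20.8% higher and 19.6% lower. Per1 measured 32.5, 32.2 and 34.7 CPM in SFr and 28.6, 29.9 and 28.8 CPM in NSFr (0.19 ± 0.052, adjusted p = 0.00416). Nr1d2 (0.21 ± 0.036) and Dbp (0.25 ± 0.065) were also higher in SFr. Lower in SFr were Cry1 (-0.24 ± 0.063, adjusted p = 0.00207), Per2 (-0.26 ± 0.072, adjusted p = 0.00405), Clock and Cry2. Per2 measured 18.3, 16.4 and 19.7 CPM in SFr and 20.9, 22.02 and 22.4 CPM in NSFr, and its groups did not overlap. The change of Clock (-0.16 ± 0.057, adjusted p = 0.0274) was not called without SFr 1 (0.123), SFr 3 (0.0561), NSFr 1 (0.0934) or NSFr 2 (0.053). That of Cry2 (-0.15 ± 0.056, adjusted p = 0.0315) was not called without SFr 1 (0.145), SFr 2 (0.0887) or NSFr 3 (0.183). Per3 was at 0.16 (95% interval 0.025 to 0.30, adjusted p = 0.0537), and was called without SFr 1 (0.0245) or NSFr 3 (0.0262).

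With D-galactose, SFr_Dgal differed from NSFr_Dgal in 5 of 9 clock genes (41% of all genes), with Per1, Per3, Nr1d2 and Dbp higher (20.7% of genes) and Clock lower (20.3%). Dbp showed the largest difference of any clock gene in the 15 comparisons, with 35.1, 37.3 and 40.2 CPM in SFr_Dgal and 29.0, 27.6 and 28.8 CPM in NSFr_Dgal (0.40 ± 0.064, adjusted p = 4.33e-06). Every SFr_Dgal library was well above every NSFr_Dgal library. Nr1d2 differed by 0.22 ± 0.036 (adjusted p = 5.2e-06). Per1 differed by 0.18 ± 0.053 (adjusted p = 0.00673), and was not called without SFr_Dgal 1 (0.0514). Per3 differed by 0.20 ± 0.067 (adjusted p = 0.0168) and was not called without SFr_Dgal 1 (0.104), SFr_Dgal 2 (0.0602) or NSFr_Dgal 1 (0.0741). Clock differed by -0.16 ± 0.057 (adjusted p = 0.0247) and was not called without SFr_Dgal 3 (0.2) or any 1 of the NSFr_Dgal libraries (0.0519 to 0.0606). The count of called genes was 3 both without SFr_Dgal 1 and without NSFr_Dgal 1.

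**Figure D2:**
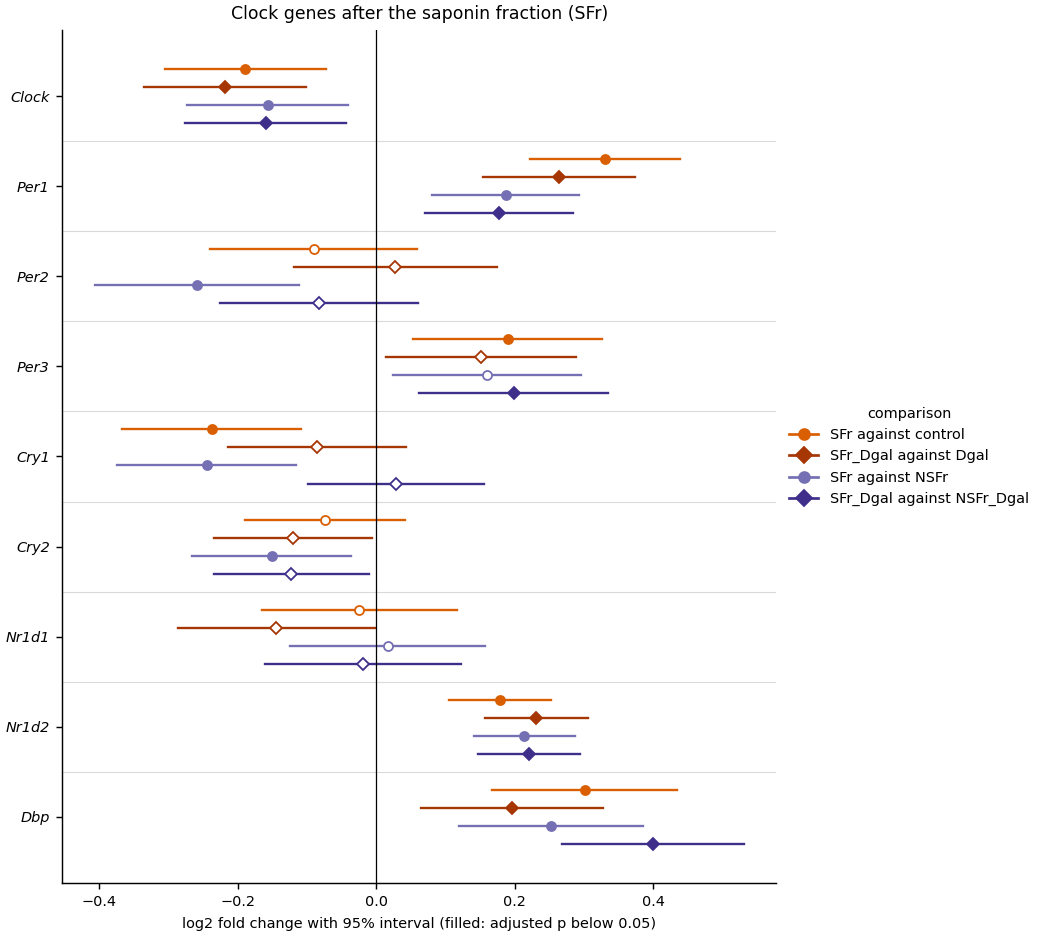
Log2 fold change (axis in log2 units, with 95% intervals) of the 9 clock genes in the 4 comparisons of SFr groups, with called genes marked. Per1, Nr1d2 and Dbp lie above 0 and Clock below 0 in all 4 comparisons, while Nr1d1 is called in none.

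Other preparations left no clock gene called against their baselines. Of the 9 genes, edgeR and DESeq2 each called 0 in RGW against control (1 at an unadjusted p under 0.05; 3.21% of all genes were called). They called 0 in NSFr against control (2 at an unadjusted p under 0.05; 8.08% of genes) and 0 in Rb2 against control (1; 1.53% of genes). The genes at an unadjusted p under 0.05 were Nr1d1 for RGW (log2 fold change -0.15, 95% interval -0.30 to -0.012, adjusted p = 0.251), Per1 and Per2 for NSFr and Per1 for Rb2. Per1 measured 28.6, 29.9 and 28.8 CPM in NSFr and 25.7, 26.5 and 27.0 CPM in control (0.14, 95% interval 0.033 to 0.25, adjusted p = 0.0951). It measured 23.7, 23.9 and 22.9 CPM in Rb2 (-0.17, -0.28 to -0.054, adjusted p = 0.141). The NSFr libraries were all above control and the Rb2 libraries all below, although neither difference passed the threshold over all genes.

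With D-galactose present in both groups, edgeR called 0 of 9 clock genes in RGW_Dgal against Dgal (1 at an unadjusted p under 0.05; 5.06% of all genes), 0 in NSFr_Dgal against Dgal (1; 6.33%) and 0 in Rb2_Dgal against Dgal (1; 2.26%), and DESeq2 also called 0 in each. In NSFr_Dgal against Dgal other fits called 1, Dbp. Dbp was nearest in NSFr_Dgal, with 29.0, 27.6 and 28.8 CPM there and 30.7, 33.8 and 33.7 CPM in Dgal. All NSFr_Dgal libraries were lower. The log2 fold change was -0.20 (95% interval -0.34 to -0.068, adjusted p = 0.0594), and it was called without Dgal 1 (adjusted p = 0.0423), with the replicate number as a block (0.0478) and with only the groups compared in the fit (0.0233).

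D-galactose was tested in each of the 5 backgrounds and as the mean of the 5 effects. In the mean, 4 of 9 clock genes were called, where 51.1% of all genes were called. Per2, Cry2 and Dbp were higher (24.7% of genes were) and Nr1d2 was lower (26.4% were). Per2 was higher by 0.21 ± 0.032 (adjusted p = 1.85e-06), or 15.6%, Cry2 by 0.14 ± 0.025 (adjusted p = 2.75e-05) and Dbp by 0.16 ± 0.030 (adjusted p = 4.34e-05). Nr1d2 changed by -0.077 ± 0.016 (adjusted p = 0.000172), or -5.20%. The effect was positive in 5 of 5 backgrounds for Per2 and Cry2 and in 4 of 5 for Dbp, and negative in 5 of 5 for Nr1d2. Per1, at 0.056 (95% interval 0.0068 to 0.10), had an adjusted p of 0.0524. It was called with RLE scaling (0.0461), without the 6 SFr libraries (0.00762) and without some single libraries, such as Dgal 1 (0.0085). Other alternatives left it uncalled, so that the count was 4 to 5. Clock, Per3, Cry1 and Nr1d1 were not called, with effects from -0.034 to 0.035.

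In Dgal against control 2 clock genes were called, both higher (25.1% of all genes were called, 11.9% higher and 13.1% lower). Dbp measured 30.7, 33.8 and 33.7 CPM in Dgal and 28.2, 28.0 and 26.5 CPM in control (0.25 ± 0.067, adjusted p = 0.00661). Cry2 measured 27.6, 27.4 and 28.3 CPM in Dgal and 23.0, 25.6 and 25.4 CPM in control. Both genes were higher in every Dgal library. The change of Cry2 (0.18 ± 0.057, adjusted p = 0.0213) was not called without control 1 (0.137) or Dgal 3 (0.0691), which left 1 gene called. Sphk2, the neighbour that overlaps Dbp, changed by 0.043 ± 0.048 here (adjusted p = 0.548) and by 0.078 ± 0.021 in the mean of the 5 backgrounds (adjusted p = 0.00192).

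In RGW_Dgal against RGW 3 clock genes were called (15.2% of all genes): Per2 and Dbp were higher, as were 6.3% of genes, and Nr1d2 was lower, as were 8.93%. Per2 measured 22.2, 23.4 and 22.7 CPM in RGW_Dgal and 20.0, 18.04 and 19.8 CPM in RGW, without overlap. Its change of 0.24 ± 0.072 (adjusted p = 0.0176) was not called without RGW 2 (0.102) or RGW_Dgal 2 (0.0666). Dbp measured 31.0, 30.8 and 32.9 CPM in RGW_Dgal and 23.5, 27.1 and 28.5 CPM in RGW (0.26 ± 0.067, adjusted p = 0.0068), a change not called without RGW 1 (0.0799). The lowest RGW library, number 1, lay well under the other two. Nr1d2 changed by -0.11 ± 0.036 (adjusted p = 0.0363), which was not called under 7 of 11 alternatives, among them leaving out RGW 1 (0.228), RGW 3 (0.0639), RGW_Dgal 2 (0.169) or RGW_Dgal 3 (0.101). The count fell to 1 without RGW 1 or RGW_Dgal 2.

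In Rb2_Dgal against Rb2 4 clock genes were called (21% of all genes), with Per1, Per2 and Cry2 higher (9.81% of genes) and Nr1d2 lower (11.2%). Per2 measured 22.6, 23.0 and 24.8 CPM in Rb2_Dgal and 17.9, 16.9 and 18.9 CPM in Rb2 (0.39 ± 0.072, adjusted p = 0.000166). Per1 measured 26.5, 29.8 and 26.9 CPM in Rb2_Dgal and 23.7, 23.9 and 22.9 CPM in Rb2 (0.24 ± 0.055, adjusted p = 0.00176). Both period genes were higher in all Rb2_Dgal libraries, and Rb2 alone held the lowest group means of both. Nr1d2 measured 82.1, 79.96 and 79.95 CPM in Rb2_Dgal and 86.3, 89.2 and 89.0 CPM in Rb2 (-0.13 ± 0.036, adjusted p = 0.0108). Cry2 changed by 0.17 ± 0.056 (adjusted p = 0.0285), which was not called without Rb2 1 (0.06), Rb2 3 (0.141), Rb2_Dgal 2 (0.13) or Rb2_Dgal 3 (0.0945).

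In SFr_Dgal against SFr 2 clock genes were called, Per2 and Cry1, both higher (19% of all genes were called, 8.46% higher and 10.5% lower). Cry1 measured 19.3, 22.3 and 20.3 CPM in SFr_Dgal and 17.2, 17.4 and 19.1 CPM in SFr, without overlap (0.20 ± 0.063, adjusted p = 0.0224). Per2 measured 23.3, 21.4 and 19.6 CPM in SFr_Dgal and 18.3, 16.4 and 19.7 CPM in SFr, with overlap (0.23 ± 0.072, adjusted p = 0.0187). Neither call held in a fit of only these 2 groups (0.0848 for Cry1 and 0.0847 for Per2) or without SFr 2 (0.0789 and 0.127). Cry1 was also not called without SFr 1 (0.0952) or SFr_Dgal 2 (0.135), and Per2 without SFr_Dgal 1 (0.125). In NSFr_Dgal against NSFr, edgeR and DESeq2 called 0 of 9 clock genes, with 0 at an unadjusted p under 0.05, where 12.7% of all genes were called. The largest effect there was that of Cry2, 0.10 (95% interval -0.011 to 0.22, adjusted p = 0.249).

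Whether the D-galactose effect differed between the 5 backgrounds was tested directly, and edgeR and DESeq2 called 0 of 9 clock genes (0.796% of all genes were called by edgeR). Per1, Per2 and Cry1 had unadjusted p of 0.00154, 0.024 and 0.0493, with adjusted p of 0.105, 0.34 and 0.438. For the single interactions, edgeR called 0 clock genes each: 0 of 9 at an unadjusted p under 0.05 for RGW (0% of all genes were called) and for SFr (0.583%), 1 for NSFr (0.041%) and 2 for Rb2 (0%). The gene for NSFr was Dbp, whose D-galactose effect in the NSFr background differed from that without a preparation by -0.25 (95% interval -0.44 to -0.059). The 2 genes for Rb2 were Per1 and Per2, whose D-galactose effects were higher in the Rb2 background than without a preparation by 0.23 (95% interval 0.072 to 0.39) and 0.28 (0.066 to 0.49). A difference in the calls between backgrounds is therefore not shown to be a difference in the response.

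**Figure D3:**
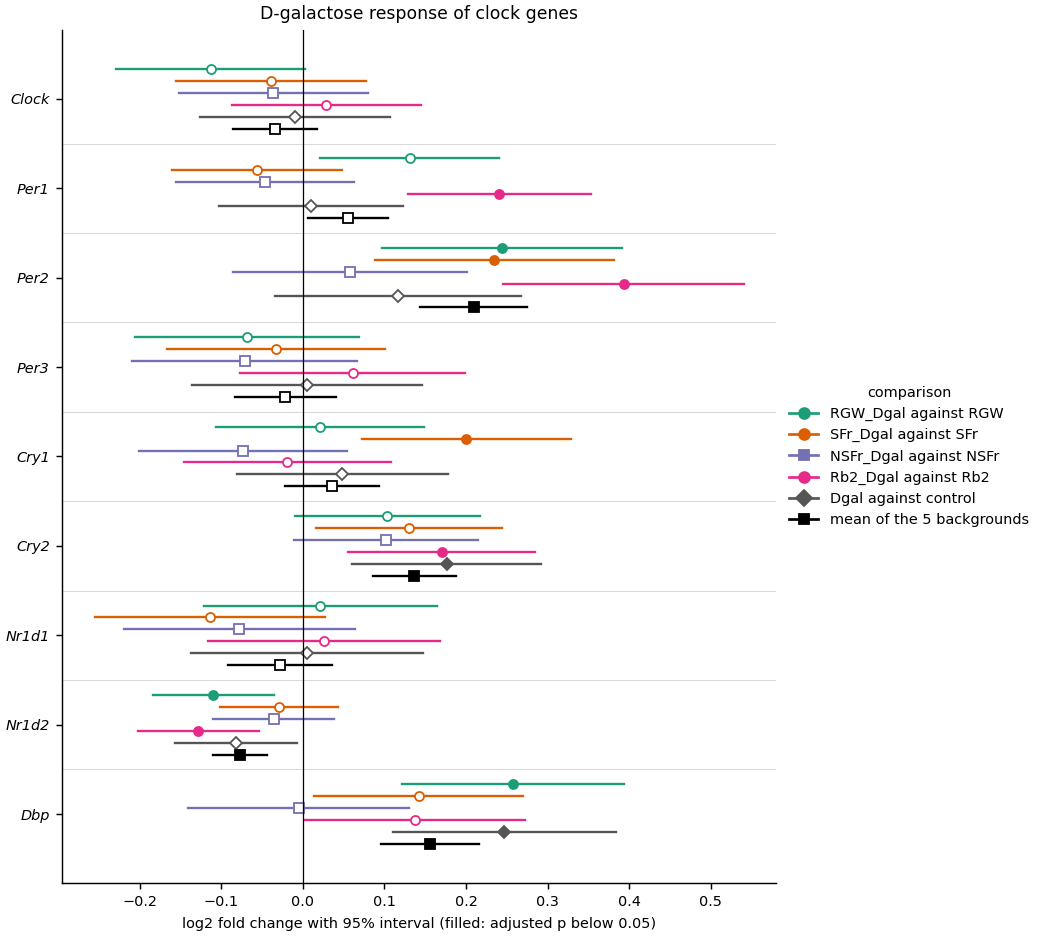
Log2 fold change (axis in log2 units, with 95% intervals) of the 9 clock genes with against without D-galactose, in each of the 5 backgrounds and as their mean. Per2 and Cry2 lie above 0 and Nr1d2 below 0 in every background, and Dbp lies above 0 in all but the NSFr background.

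Nr1d1, the highest of the 9 in CPM per kb of merged exons, was called in none of the 15 comparisons. Its log2 fold changes lay between -0.15 and 0.026, and their 95% intervals between -0.30 and 0.17. Over the 10 groups its adjusted p was 0.21, but 0.0372 without Dgal 1 and 0.0425 without NSFr 1. In Dgal it measured 73.5, 82.1 and 91.5 CPM, the widest spread of any group, and in control 78.3, 85.1 and 83.3 CPM. Its exons (chr11:98767932-98775333, minus strand, GRCm38) overlap those of Thra, the thyroid hormone receptor gene on the opposite strand, over 263 bases, 8.55% of the exonic length of Nr1d1. Thra was higher in SFr than in control by 0.090 ± 0.036 (adjusted p = 0.0401) and in SFr_Dgal than in Dgal by 0.20 ± 0.036 (adjusted p = 3.6e-05). Nr1d1 was at -0.024 and -0.14 there and was called in neither. The part of the overlap in the counts of Nr1d1 was not tested.

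Genes that work beside the core clock were counted in lists. All counts for SFr against control stand beside 43.1% of all tested genes called there (21.3% higher and 21.8% lower), and those for the mean effect of D-galactose beside 51.1% (24.7% higher and 26.4% lower). Of 9 tested relatives of the loop genes, Hlf apart, 2 were higher and 1 lower in SFr than in control (median log2 fold change 0.0019, against 0.00050 over all tested genes), a share of called genes under that of all genes. Npas2, a relative of Clock, measured 1.74, 1.81 and 1.82 CPM in SFr and 0.98, 1.18 and 0.99 CPM in control (0.77 ± 0.19, adjusted p = 0.00129). Bhlhe40, a repressor that binds E-boxes, was higher (0.16 ± 0.043, adjusted p = 0.00202), and Nfil3, a repressor that binds D-boxes as DBP does, was lower (-0.19 ± 0.045, adjusted p = 0.000885). Tef, a relative of Dbp, was at 0.0019 ± 0.028. Hlf, a relative of Dbp named after its values were seen, was left out of the count because only the SFr and SFr_Dgal groups reached the level of the filter on low counts (0.385 CPM), so that it was tested only because it was high there. It averaged 0.403 CPM in SFr and 0.0978 CPM in control, the second under the level of 3 counts in a library (0.104 to 0.129 CPM).

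In the mean effect of D-galactose, 7 of these 9 relatives were higher and 1 lower (median 0.13, against -0.00044 over all tested genes). They included Nfil3 (0.18 ± 0.020, adjusted p = 2.45e-09), Tef (0.10 ± 0.013, adjusted p = 2.48e-08), Npas2 (0.30 ± 0.090, adjusted p = 0.00678) and Bhlhe40 (0.084 ± 0.019). Lower was Bhlhe41 (-0.086 ± 0.021, adjusted p = 0.000922), and not called was Rorb, both named after their values were seen. Since 51.1% of all genes were called there, a count of called genes says little by itself.

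Of 9 genes that control the stability of clock proteins, 0 were higher and 3 were lower in SFr than in control (median -0.037), fewer than the 43.1% called among all genes. Usp2, a deubiquitinase gene, was lower (-0.25 ± 0.058, adjusted p = 0.000712), as was Btrc, an F-box gene whose product marks the PER proteins for degradation (-0.24 ± 0.050, adjusted p = 0.00024). In the mean effect of D-galactose, 1 was higher and 3 were lower (median 0.020), near the 51.1% called among all genes, with Usp2 at 0.23 ± 0.025 (adjusted p = 3.57e-09) and Btrc at 0.034 ± 0.022 (adjusted p = 0.207). Usp2 was thus called with opposite signs in the 2 comparisons.

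Of 6 output genes linked to the clock, 3 were higher and 2 lower in SFr than in control (median 0.097; 43.1% of all genes were called). Wee1, a cell cycle kinase gene with E-boxes known from mouse liver, measured 20.7, 21.2 and 21.2 CPM in SFr and 12.0, 10.8 and 12.0 CPM in control (0.86 ± 0.071, adjusted p = 3.24e-12). Pdk4, which restrains pyruvate oxidation, was higher by 0.69 ± 0.056 and Nampt, which encodes the rate-limiting enzyme of NAD salvage, by 0.38 ± 0.043, while Tcap, which encodes the titin cap protein of the sarcomere, was lower (-0.50 ± 0.087, adjusted p = 5.87e-05). In the mean effect of D-galactose 5 of the 6 were higher and 0 lower (median 0.15; 51.1% of all genes were called), with Tcap at 0.27 ± 0.038, Pdk4 at 0.18 ± 0.026, Wee1 at 0.16 ± 0.033 and Nampt at 0.13 ± 0.019.

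Per1 responds to immediate early and glucocorticoid signals, and lists of both were counted. In SFr against control, 8 of 16 immediate early and cAMP-responsive genes were higher and 1 was lower (median 0.19), where 21.3% of all genes were higher and 21.8% lower. Fosl1 (1.11 ± 0.12, adjusted p = 1.74e-09), Fos (0.66 ± 0.087) and Dusp1 (0.62 ± 0.050) were higher, and Egr3 was lower (-0.39 ± 0.037, adjusted p = 1.09e-10). Of 7 tested glucocorticoid receptor targets 6 were higher and 0 lower (median 0.46), where 21.3% of all genes were higher, among them Mt2, a metallothionein gene (1.70 ± 0.076), Sgk1, a kinase gene (0.79 ± 0.038), Errfi1 (0.67 ± 0.038) and Tsc22d3 (0.34 ± 0.046). Fkbp5, named after its values were seen, was the 1 not called (-0.10 ± 0.064, adjusted p = 0.218). In SFr against NSFr and in SFr_Dgal against NSFr_Dgal, 6 of the 7 were called higher and Fkbp5 was called lower. Of all genes, 20.8% and 20.7% were higher there and 19.6% and 20.3% lower. In the mean effect of D-galactose the immediate early list had 5 genes higher and 6 lower (median 0.017) and the glucocorticoid list 1 higher and 1 lower (median -0.023), where 24.7% of all genes were higher and 26.4% lower. The part of these signals in the change of Per1 was not tested.

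**Figure D4:**
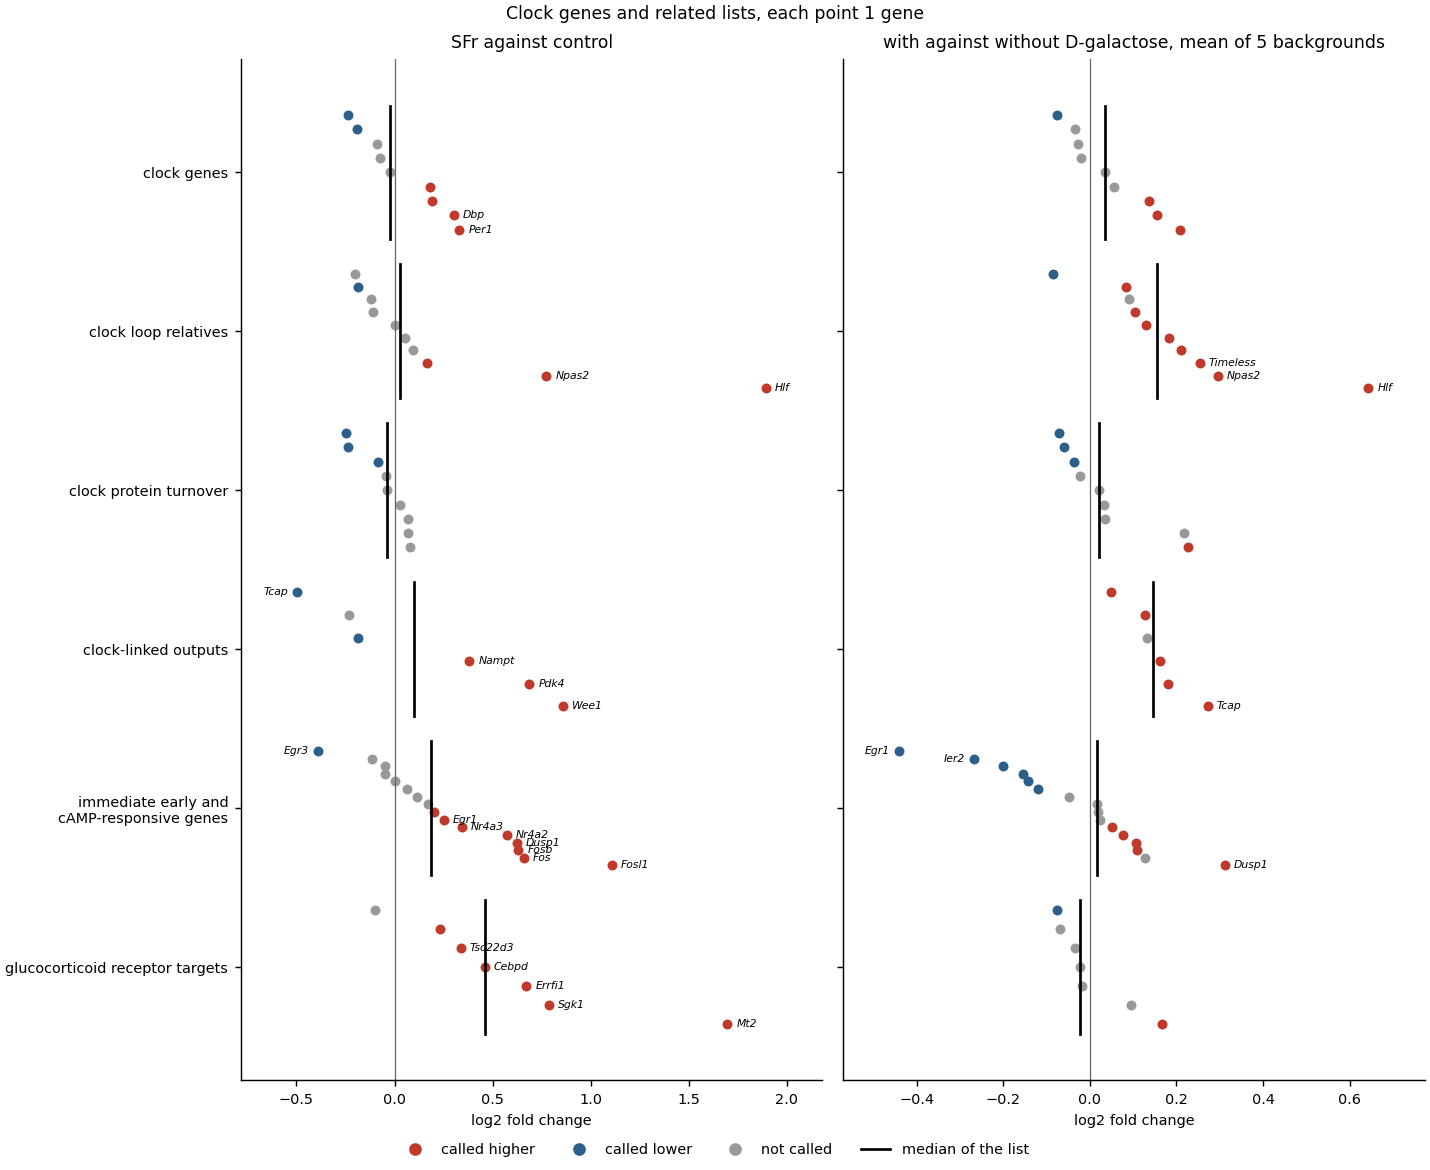
Log2 fold change (horizontal axis, log2 units) of every tested gene in 6 lists (rows), in SFr against control (left) and with against without D-galactose as the mean of 5 backgrounds (right); each point is 1 gene, coloured by its call, and the black line is the median of the list. The glucocorticoid receptor targets have a median of 0.46 on the left and -0.023 on the right. The loop relatives have medians of 0.0019 and 0.13 without Hlf, which was tested only because it was high in SFr and SFr_Dgal. The lines drawn include Hlf and stand at 0.028 and 0.16.

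Markers of cell state moved with the same comparisons. All 8 proliferation markers were lower in SFr than in control, where 21.8% of all genes were lower, and in the mean effect of D-galactose, where 26.4% were. Their summed level ranged from 45.0 to 48.8 CPM in SFr_Dgal, 76.2 to 86.3 CPM in SFr, 81.4 to 91.5 CPM in Dgal, 87.3 to 100.0 CPM in RGW_Dgal, 114 to 132 CPM in NSFr_Dgal, 118 to 128 CPM in Rb2_Dgal, 127 to 163 CPM in RGW, 187 to 219 CPM in NSFr, 194 to 219 CPM in Rb2 and 187 to 194 CPM in control. None of the 8 was at 0 in any group. The SFr_Dgal, SFr and Dgal groups thus lay under NSFr, Rb2 and control without overlap. Of 9 myotube markers, 7 were lower and 1 was higher in SFr than in control (43.1% of all genes called), and their sum ranged from 19895 to 20806 CPM in SFr, against 23751 to 24518 CPM in control. In the mean effect of D-galactose 6 of the 9 were higher and 1 was lower (median 0.080; 51.1% of all genes called). Of 3 myoblast markers, Cdh15 and Pax7 were lower in SFr than in control, where 21.8% of all genes were lower. The Pax7 libraries of the 2 groups overlapped. Myf5 was at 0.11 ± 0.067 and was not called. The sum of the 3 was 294 to 313 CPM in SFr and 417 to 440.4 CPM in control. The 2 tested fat cell markers, Cebpa (0.78 ± 0.091) and Pparg (0.34 ± 0.098), were higher in SFr, where 21.3% of all genes were higher. The 5 listed summed to 31.4 to 32.8 CPM in SFr and 18.9 to 21.5 CPM in control, with Plin1, which coats lipid droplets, at 0 in every library of both groups. Of 3 tested bone, cartilage and tendon markers, Sp7 apart, 1 was higher (Sox9) and 1 lower (Runx2), where 43.1% of all genes were called. Sp7 was left out because its mean reached the level of the filter on low counts in neither SFr nor control. The part of these markers in the changes of the clock genes was not tested, and in bulk RNA fewer cells of a type and less RNA per cell cannot be told apart.

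For the 3 clock genes of widest span, the genes with the most similar profile over the 10 group means were found among 9750 genes, as the root mean square difference of centred log2 CPM. For Dbp they were Sash1 (0.036), Tdrd7 (0.049) and Mxi1 (0.052), each with a profile highest in SFr_Dgal, as Dbp has, which follows from the choice by likeness. Mxi1 averaged 84.7 ± 4.07 CPM in SFr_Dgal and 62.6 ± 0.529 CPM in control (SD, n = 3 each). For Per1 they were Gas2l1 (0.042), P2rx7 (0.043) and Ier5l (0.044), and for Per2 Crtc1 (0.060), Tssc4 (0.065) and Zfp13 (0.065). Gas2l1 averaged 97.3 ± 2.23 CPM in SFr and 74.2 ± 0.460 CPM in control. The differences of Mxi1 and Gas2l1 likewise follow from that choice.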

How the data were processed

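RNA was measured in 30 C2C12 libraries. Per the labels' protocols, poly(A) RNA was made into directional libraries for DNBSEQ sequencing. The submitters' processing notes name the builds GRCm38 and mm10 and the tools STAR 2.7.9a, RSEM 1.3.3, Trim Galore 0.6.10 and FastQC 0.11.9, with annotation and strand setting not given in the sources used here. Deposited values were expected counts, which RSEM estimates by dividing shared reads among genes, not normalized. Of these values, 19.4% were not whole (tolerance 0.005), and they were rounded. Totals were 22209306 to 30218420.

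edgeR 4.0.16 in R 4.3.3 fitted robust quasi-likelihood tests to all 10 groups at once, with TMM factors of 0.972 to 1.04, filterByExpr (12184 of 16025 genes kept) and Benjamini-Hochberg adjustment over all genes at 0.05. Standard errors were worked back from F as the size of the log2 fold change over its root. With a common dispersion of 0.00181, the coefficient of variation between replicates was 4.25%. 

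Alternatives were RLE scaling, no filter, DESeq2 1.42.0, a replicate block, each library left out, a fit limited to the groups compared, plus, chosen after seeing the data, a fit without the 6 SFr libraries. The 30 pairs of libraries within groups differed beyond sampling noise (chi-square per degree of freedom 2.46 to 13.7), and none was merged. Coordinates and lengths are from GENCODE on GRCm38 and promoter windows from RefSeq on GRCm38.p6.

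The clock genes and the lists were chosen with earlier results of these data known. Beyond the clock genes, the rule for named genes took up to 4 genes of each list with the smallest p over the 10 groups, Thra, which overlaps Nr1d1, and for the 3 clock genes of widest span the 3 most similar profiles among genes of at least 5 CPM. Genes named outside the rule are marked as such, apart from Sphk2, which was added for its overlap with Dbp. Results on 3 further genes of these lists are not reported here, and the lists are counted without them.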

Additional observations from a re-analysis of the deposited data

Results flagged for a closer look

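No clock gene was singled out by a difference in its D-galactose effect between backgrounds, and groups of 3 libraries are too small for a check of outlying samples. Among the listed neighbours, 4 genes were singled out because their D-galactose effect differed between backgrounds in the test of that difference (edgeR).

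Myh3, the embryonic myosin gene, had an adjusted p of 0.0012 over the 5 backgrounds. Its log2 fold change with D-galactose was -0.18 ± 0.044 in the SFr background and -0.63 ± 0.044 without a preparation, a difference of 0.44 (adjusted p = 0.000124).

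Egr3, an immediate early gene, had an adjusted p of 1.58e-05 over the 5 backgrounds, with -0.46 ± 0.038 in the SFr background, -0.0044 ± 0.037 in the NSFr background and -0.25 ± 0.037 without a preparation. Ier2, also an immediate early gene, had an adjusted p of 0.0245, with effects from -0.41 ± 0.049 in the SFr background to -0.11 ± 0.050 in the RGW background. Pdk4, which restrains pyruvate oxidation, had an adjusted p of 0.0245, with effects from 0.42 ± 0.058 in the Rb2 background to 0.039 ± 0.053 in the SFr background.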

How the results depend on the processing

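Of the 33 pairwise calls of clock genes, 19 were kept under every alternative run for them, 14 were lost under at least 1 and 0 reversed. Another 6 pairwise results gained a call. The 4 calls for the mean D-galactose effect were kept under all 35 alternatives, and Per1 was called as well under some of them. The number of clock genes called moved by over 1.5 times as follows. In NSFr_Dgal against Dgal it was 1 with the replicate block and 1 with only the groups compared, against 0, and 0 to 1 with single libraries left out. In SFr_Dgal against SFr it was 0 with only the groups compared, against 2, and 0 to 2 with single libraries left out. Over the 10 groups it was 5 without the 6 SFr libraries, against 8, and 6 to 9 with single libraries left out. With single libraries left out it was 1 to 2 in Dgal against control, 1 to 3 in RGW_Dgal against RGW and 3 to 4 in SFr_Dgal against NSFr_Dgal. The cause of these moves was not tested.

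Replicate numbers showed no pairing of the libraries. Deviations of same-numbered libraries of different groups had correlations from -0.193 to 0.157 (median 0.00386 over 135 pairs, 8 of them above 0.1). Those of other-numbered libraries ran from -0.168 to 0.261 (median 0.000626 over 270 pairs, 13 of them above 0.1). With the number as a replicate block, the count of called clock genes changed in 1 of 18 results, to 1 in NSFr_Dgal against Dgal, where Dbp had an adjusted p of 0.0478.

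Limits: expression was read once per culture, at unstated clock times, with 3 libraries per group. Rhythm, phase and protein were not measured.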
